A study of Mus musculus with 12 samples.

Results

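The response of Tem1-deficient scars to traction was described from 6 of the 12 RNA-seq libraries of a mouse scar study, 3 from stretched scars (lacZTR) and 3 from unstretched scars (lacZSH). The libraries were chosen by their labels for genotype and treatment and by no measured value. All 6 came from Tem1 lacZ/lacZ mice, in which a lacZ reporter takes the place of the only exon of Tem1. The gene is therefore missing from every cell type and from sham and traction scars alike, and the model does not limit the loss to fibroblasts. The mice were males of 8 to 12 weeks from a line crossed to C57BL/6J for 10 generations. Each mouse was wounded on the back, and a plastic device was placed over the wound 6 days later. In lacZTR scars the device was lengthened by 1 mm each day up to 8 mm, while lacZSH scars carried the same device without lengthening. A portion of each scar gave the RNA, 1 scar for each library. The other 6 libraries, from Tem1 WT/WT scars under sham (WTSH) and traction (WTTR), serve here to set the size of the Tem1-deficient response against that of the wild type.

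Tem1, also called endosialin and listed as Cd248, encodes a membrane glycoprotein of stromal fibroblasts and pericytes. Tension across a healing wound is known to turn fibroblasts into myofibroblasts, which contract and lay down collagen. TGF-beta is the main growth factor of that switch, integrins and the co-activators YAP and TAZ carry the mechanical signal into the cell, and leukocytes and new vessels accompany the growing scar. The question posed by the comparison is which parts of that response stay in scars without Tem1.

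Cd248 was near 0 in every Tem1 lacZ/lacZ library. It had 4, 8 and 4 counts in the sham scars and 0, 13 and 6 counts in the traction scars, against 3883 to 16413 counts in the 6 Tem1 WT/WT libraries. Cd248 thus followed the genotype label in all 12 libraries. Totals ranged from 41536788 to 64644293 counts over the series and from 41536788 to 51452409 counts in the 6 Tem1-deficient libraries. Of 35976 genes listed, 18853 passed a filter on low counts and were tested.

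Traction scar 1 stood apart from the other traction scars of its genotype. Its log2 levels correlated more closely with sham scars 2 and 3 (r = 0.979 with each, across genes) than with traction scars 2 and 3 (r = 0.969 and 0.965). The sham scars also differed, with r = 0.961 between sham scars 1 and 2, below every pair of traction scars, and 0.975 between sham scars 1 and 3. Traction scar 1 held the most epidermal RNA. Genes of the interfollicular epidermis summed to 52597, 19934 and 24023 CPM (counts relative to a fixed total for each library, normalized by the TMM method) in traction scars 1, 2 and 3 and to 23551 to 27693 CPM in the sham scars. Wound-edge keratins and stress genes summed to 28745, 5152 and 5950.0 CPM in the traction scars and to 12825 to 15152 CPM in the sham scars. The counts and medians of the main gene lists are therefore also given without traction scar 1, and the part of its epidermal RNA in the results was not tested. All 80 genes whose values are described singly kept their direction without it, while 7 of the 71 at an unadjusted p under 0.05 no longer passed that threshold (Awat2, Cd34, Egr2, Fosb, Vegfa, Wnt2 and Xcr1). Many of the 80 were chosen for separated groups or a large change with that scar included. Their kept direction was therefore partly fixed by the choice. In bulk tissue, fewer cells of a type and less RNA per cell cannot be told apart.

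Across all genes, the response of Tem1-deficient scars was small beside the spread between mice, which the test estimated over all 12 libraries of both genotypes. No gene passed a Benjamini-Hochberg adjusted p of 0.05 in edgeR's quasi-likelihood test (0% of genes tested), and the smallest adjusted p was 0.598. At an unadjusted p under 0.05, 1067 genes were higher in traction scars (5.66% of genes tested) and 463 were lower (2.46%), 8.12% together, where 943 in all would be 5% of the genes tested. The count leaned upwards at this threshold although 48.5% of all genes had a log2 fold change above 0 and 51.5% one below 0. The 3 traction scars lay above the 3 sham scars for 1276 genes (6.77%) and below them for 1161 (6.16%).

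Other tests of the same counts called some genes. DESeq2's Wald test called 23 genes, 17 higher (0.0902%) and 6 lower (0.0318%), at an adjusted p under 0.05. limma-voom with sample weights, which gave traction scar 1 a weight of 0.373, called 346 genes higher (1.84%) and 89 lower (0.472%), 2.31% together, while limma-voom without weights called 0, with 1429 genes at an unadjusted p under 0.05. Of the DESeq2 calls, 20 were among the limma-voom calls, which is 87.0% of the former and 4.60% of the latter. Without traction scar 1, edgeR called 73 genes, 72 higher (0.371%) and 1 lower (0.00515%), and the counts at an unadjusted p under 0.05 went to 2405 higher (12.4%) and 1316 lower (6.78%). Without traction scar 2, those 2 counts were 362 and 226.

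Traction and sham scars were mixed along the main axis of variation among the 6 Tem1-deficient libraries. Principal component 1 held 53.5% of the variance over the 500 most variable genes, and the groups differed on it by 8.54 (exact permutation p = 0.7, two-sided). With all genes that passed the filter, the exact permutation p was 0.3. Adipocyte genes such as Adipoq and Cfd sat at its negative end, and hair and pigment genes such as Krt35 and Tyr at its positive end. Sham scar 1 (-30.1) and traction scar 3 (-16.3) lay towards the adipocyte end, and sham scar 2 (18.4), traction scar 1 (17.9) and traction scar 2 (11.3) towards the hair end. Principal component 2, with 23.7% of the variance, placed all traction scars (-1.94, 21.8 and 8.95) above all sham scars (-5.54, -13.2 and -10.1), with an exact permutation p of 0.1, the smallest that 3 scars against 3 can give.

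**Figure D1:**
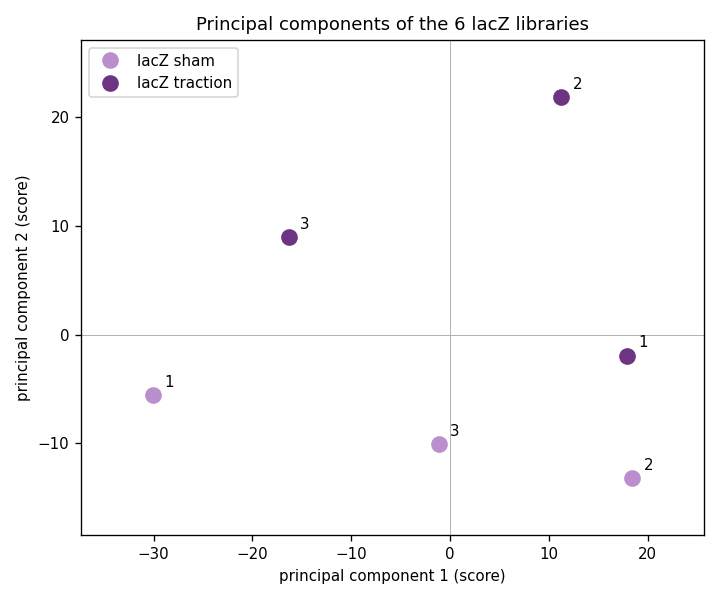
Principal components of the 6 Tem1-deficient libraries, with component 1 (53.5% of the variance) on the horizontal axis and component 2 (23.7%) on the vertical axis, both as scores without units. Each point is 1 scar, marked with its number. The groups are mixed along component 1, while on component 2 the traction scars lie between -1.94 and 21.8, all above the sham scars at -13.2 to -5.54.

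Most genes called in the wild type had the same direction of change in Tem1-deficient scars. In Tem1 WT/WT scars, 1057 genes were called higher (5.61%) and 668 lower (3.54%), 9.15% together, at an adjusted p under 0.05 in the same edgeR fit. The 2 contrasts compare different libraries but share the filter, the normalization and the estimate of the spread of each gene. Of the 1057, 952 (90.1%) had a log2 fold change above 0 in Tem1-deficient scars, with a median of 0.42 against 1.19 in the wild type. Of the 668, 578 (86.5%) had one below 0, with a median of -0.37 against -1.55. The median over all genes tested was -0.01 in both genotypes. The wild-type medians are values of the contrast that chose these genes, a choice that favours large values there. The smaller Tem1-deficient medians are therefore given as a description, and the difference in size was not tested with these sets.

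The 3 traction scars did not carry these changes equally. The mean log2 level of the 1057 genes lay above the sham mean by 0.22, 0.68 and 0.54 in traction scars 1, 2 and 3, while the sham scars lay at 0.075, -0.16 and 0.08. For the 668 genes the traction scars lay at -0.22, -0.50 and -0.55 and the sham scars at -0.08, 0.16 and -0.08. All 3 traction scars were thus on the wild-type side of all 3 sham scars in each set, and traction scar 1 was nearest to them. At an unadjusted p under 0.05, 305 of the 1057 genes were higher (28.9%, against 5.66% of all genes) and 89 of the 668 were lower (13.3%, against 2.46%). Without traction scar 1 these were 502 and 123. The estimate of the spread, shared by both genotypes, entered the wild-type calls and these p-values alike. The shares are therefore not independent of the choice of genes.

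The test of the difference between the genotypes called no single gene. For the interaction of genotype and traction, 0 genes passed an adjusted p of 0.05 (0%, smallest adjusted p 0.548) in edgeR, and DESeq2 called 69. At an unadjusted p under 0.05, the log2 fold change of Tem1-deficient scars lay below that of the wild type for 840 genes and above it for 840 (4.46% each). Of the 1057 genes called higher in the wild type, 445 lay below the wild type at that threshold and 0 above it, and of the 668 called lower, 355 lay above it and 0 below. These counts use the wild-type libraries that chose the genes and support nothing further. Across all 18853 genes the log2 fold changes of the 2 genotypes, which share no library, had a Pearson r of 0.483 and a Spearman rho of 0.484. Their standard deviation was 0.54 in Tem1-deficient and 1.05 in wild-type scars.

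**Figure D2:**
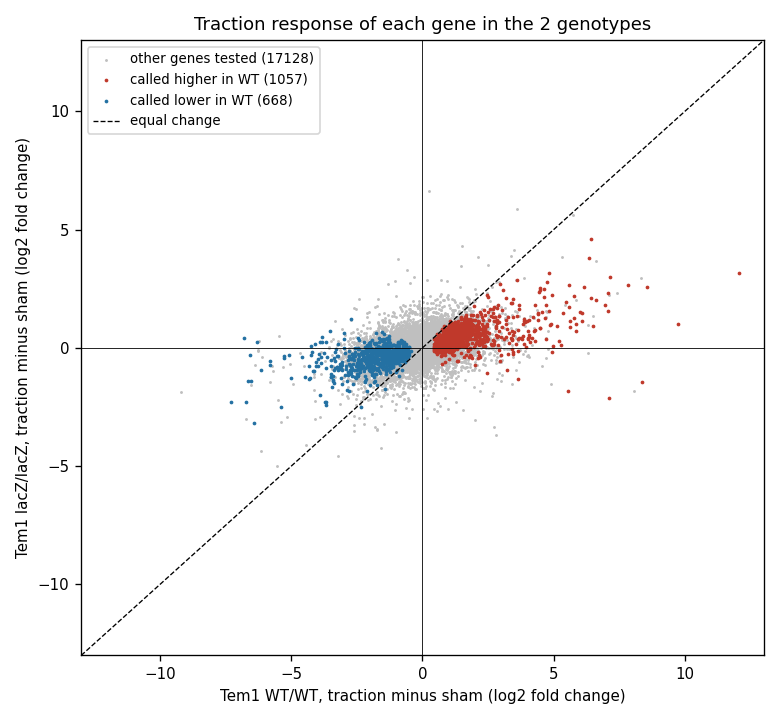
Traction minus sham log2 fold change of each of the 18853 genes tested in Tem1 WT/WT scars (horizontal axis) and in Tem1 lacZ/lacZ scars (vertical axis). Red points are the 1057 genes called higher and blue points the 668 called lower in the wild type, and the dashed line marks equal change. Most red points lie above 0 and most blue points below 0 on the vertical axis, nearer to 0 than the dashed line.

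The genes with the smallest p included regulators and matrix genes whose wild-type changes had the same direction. Bmf, a pro-apoptotic BH3-only protein of the Bcl-2 family, was at 14.3, 14.1 and 15.8 CPM in sham scars 1, 2 and 3 and at 23.7, 40.1 and 33.2 CPM in traction scars 1, 2 and 3. Every traction scar lay above every sham scar, with a log2 fold change of 1.13 ± 0.19 (SE) and an adjusted p of 0.598 in edgeR. DESeq2 gave an adjusted p of 0.00033 and edgeR without traction scar 1 gave 0.043. The wild-type change was 1.06. Below, CPM values stand in the order of scars 1, 2 and 3 with sham before traction, and a value ± its SE in parentheses after them is the log2 fold change of traction against sham in Tem1-deficient scars. A DESeq2 adjusted p belongs to that change, for which edgeR with all libraries gave 0.598 or more for every gene. Differences between the genotypes carry edgeR's adjusted p only. The 2 kinds of p are therefore not to be compared. DESeq2 called 69 genes for the interaction and 23 for the Tem1-deficient change. List counts stand against these shares of all genes. At an unadjusted p under 0.05, 5.66% were higher and 2.46% lower (12.4% and 6.78% without traction scar 1). Without overlap, 6.77% were higher and 6.16% lower. At an unadjusted interaction p under 0.05, 4.46% lay on each side.

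Snai1 encodes Snail, a transcription factor of the epithelial to mesenchymal switch. It was at 4.26, 3.70 and 5.11 CPM in sham scars and at 9.44, 17.3 and 10.1 CPM in traction scars. The groups did not overlap, and the log2 fold change was 1.49 ± 0.28 (DESeq2 adjusted p = 0.0034). The wild-type change was 2.70 (difference between the genotypes -1.20 ± 0.39, edgeR adjusted p = 0.548). Emilin1, an elastic fibre glycoprotein of the extracellular matrix, was at 35.1, 24.2 and 34.1 CPM under sham and at 47.4, 122 and 77.8 CPM under traction, again without overlap. Its log2 fold change was 1.40 ± 0.32 in Tem1-deficient and 2.39 in wild-type scars (difference between the genotypes -0.99 ± 0.44, edgeR adjusted p = 0.555). Ccbe1, a secreted protein needed for lymphatic growth, went from 14.4, 11.8 and 13.9 CPM to 21.9, 48.3 and 33.4 CPM, with a log2 fold change of 1.37 ± 0.28 and no overlap.

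Several secreted proteins of injured tissue had log2 fold changes above 2 in Tem1-deficient scars. Saa3, an acute-phase serum amyloid protein, was at 16.1, 7.69 and 22.5 CPM in sham scars and at 76.9, 535 and 31.4 CPM in traction scars, a log2 fold change of 3.80 ± 1.25. Traction scar 2 was far above the others, and traction scar 3 lay just above the highest sham scar. Ptx3, a soluble pattern-recognition protein of the pentraxin family, was at 10.2, 4.46 and 6.72 CPM and 19.0, 106 and 31.4 CPM (2.87 ± 0.74, DESeq2 adjusted p = 0.025). Prg4, the joint lubricant lubricin, was at 6.62, 7.36 and 22.5 CPM and 45.6, 75.4 and 75.9 CPM (2.43 ± 0.69). Neither gene overlapped between the groups. Spp1, which encodes the matricellular cytokine osteopontin, was at 26.8, 41.7 and 44.3 CPM under sham and highest in traction scar 1 (248, 96.0 and 133 CPM), with a log2 fold change of 2.08 ± 0.65.

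Most fibrillar collagens, the chains of the main scar fibres, were higher in traction scars at the unadjusted threshold. Of the 10 fibrillar collagens tested, 9 had a log2 fold change above 0 and 6 were higher at an unadjusted p under 0.05, against 5.66% of all genes. Their median log2 fold change was 1.15 in Tem1-deficient and 1.58 in wild-type scars, and 2 lay below the wild-type change at an unadjusted interaction p under 0.05. Without traction scar 1, the median was 1.46 and 8 were higher at that threshold, while without traction scar 2 the median was 0.82.

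Type I collagen, the main fibre of skin and scar, was at the level of sham in traction scar 1 and above it in the other two. Col1a1 was at 3049.5, 1536 and 2202 CPM in sham scars and at 2700.0, 8500.0 and 7091 CPM in traction scars, so the groups overlapped, with a log2 fold change of 1.43 ± 0.49 (edgeR adjusted p = 0.598). Col1a2, its partner chain, was at 4016, 2508 and 3080.2 CPM and 3210.3, 10377 and 8508 CPM (1.20 ± 0.48), with the same overlap. Col3a1, which forms the fine fibres of early scars, was at 17251, 9666 and 14191 CPM and 12251, 26083 and 24501 CPM, a log2 fold change of 0.61 ± 0.41 that did not pass the unadjusted threshold (edgeR adjusted p = 0.686). In contrast, 3 of the 10 fibrillar collagens separated the groups, against 6.77% of all genes, among them the 2 minor chains Col24a1 and Col11a1. Col24a1 was at 12.1, 8.83 and 7.35 CPM in sham and 21.8, 53.2 and 24.3 CPM in traction scars (1.81 ± 0.52). Col11a1 was at 11.5, 19.4 and 21.9 CPM and 40.3, 70.2 and 45.4 CPM (1.56 ± 0.57), against 0.11 in the wild type, where the groups overlapped (difference between the genotypes 1.46 ± 0.79, edgeR adjusted p = 0.586).

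Of the 15 non-fibrillar collagens, 14 had a log2 fold change above 0 and 7 were higher at an unadjusted p under 0.05 (11 without traction scar 1). The median was 0.84, against 1.30 in the wild type. The basement membrane chains Col4a1 and Col4a2, which share a promoter region and lie head to head, had log2 fold changes of 1.29 ± 0.42 and 1.37 ± 0.43. Col4a1 was at 249, 144 and 201 CPM in sham and 226, 569 and 655 CPM in traction scars, so that traction scar 1 lay among the sham scars. Col12a1, which coats fibrils in tissue under tension, was at 648, 343 and 422 CPM and 824, 1743 and 1009.8 CPM without overlap (1.34 ± 0.45), against a wild-type change of 2.91 (difference between the genotypes -1.57 ± 0.62, edgeR adjusted p = 0.548).

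Enzymes that modify and cross-link collagen counted fewer members. Of 19 tested, 5 were higher and 0 lower at an unadjusted p under 0.05, against 5.66% and 2.46% of all genes (11 higher without traction scar 1). The median was 0.42 against 1.16 in the wild type (0.26 without traction scar 2). In all, 8 members lay below the wild-type change at an unadjusted interaction p under 0.05, against 4.46% of all genes. Lox, the lysyl oxidase that starts cross-linking, was at 208, 189 and 318 CPM in sham scars and 255, 755 and 534 CPM in traction scars (1.11 ± 0.35), with traction scar 1 among the sham scars. Loxl3, a related lysyl oxidase, had a log2 fold change of 0.87 ± 0.30, and Adamts2, which cuts the amino end from procollagen, one of 0.90 ± 0.35. P4ha1, the catalytic chain of prolyl 4-hydroxylase, was at 123, 98.0 and 140.4 CPM and 106, 126 and 93.4 CPM, where the groups overlapped. Its log2 fold change was -0.15 ± 0.17 against 1.08 in the wild type, a difference of -1.23 ± 0.24 (edgeR adjusted p = 0.548). Of 23 matricellular and elastic fibre genes, 3 were higher and 1 lower at that unadjusted threshold (median 0.46, with 6 higher without traction scar 1). Of 15 proteoglycan and hyaluronan genes, 3 were higher and 1 lower (median -0.02, which was above 0 without sham scar 1, at 0.15). Fmod, a small collagen-binding proteoglycan, was at 12.2, 11.1 and 9.57 CPM and 14.0, 56.7 and 27.3 CPM without overlap, while Has2, a hyaluronan synthase, was at 13.8, 9.30 and 15.6 CPM and 9.36, 4.86 and 6.71 CPM with sham scar 2 just below traction scar 1. The log2 fold changes were 1.58 ± 0.45 for Fmod and -0.89 ± 0.31 for Has2.

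Matrix proteases and their inhibitors counted 3 of 23 higher and 0 lower at an unadjusted p under 0.05, against 5.66% and 2.46% of all genes (6 higher without traction scar 1). The median was 0.34 against 1.16 in the wild type (0.15 without traction scar 3). Mmp14, a membrane-anchored collagenase, was at 357, 222 and 302 CPM in sham and 390.5, 613 and 615 CPM in traction scars without overlap (0.88 ± 0.26). Mmp9, the gelatinase abundant in neutrophils, was at 22.8, 18.8 and 7.33 CPM and 17.3, 27.0 and 20.8 CPM, with the groups overlapping (0.41 ± 0.63). Its wild-type change was 4.17 (difference between the genotypes -3.76 ± 0.91, edgeR adjusted p = 0.548).

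In the TGF-beta pathway, members that were higher included ligands and co-receptors. Of 19 genes tested, 17 had a log2 fold change above 0. At an unadjusted p under 0.05, 5 were higher, against 5.66% of all genes (10 without traction scar 1). The median was 0.42, against 0.68 in the wild type. The ligand Tgfb1 was at 22.9, 16.8 and 24.5 CPM in sham and 25.6, 50.6 and 58.8 CPM in traction scars, a log2 fold change of 1.07 ± 0.38 in which traction scar 1 lay just above the highest sham scar. The ligand Tgfb3 was at 40.2, 36.1 and 45.7 CPM and 57.4, 83.2 and 89.2 CPM (0.91 ± 0.26), and its wild-type change was 0.91. Among the genes of YAP, TAZ and their TEAD partners, 5 of 15 were higher and 1 lower at that threshold (median 0.30, and 0.33 in the wild type). The lower member was Ctgf, a matricellular target of both TGF-beta and YAP. It was at 51.7, 79.4 and 97.0 CPM in sham scars and 54.0, 46.3 and 51.6 CPM in traction scars, so that sham scar 1 lay among the traction scars. The log2 fold change was -0.59 ± 0.22, against 0.84 ± 0.22 in the wild type (difference between the genotypes -1.43 ± 0.31, edgeR adjusted p = 0.548). Myofibroblast contractile genes had 1 of 16 higher and 0 lower, with a median of 0.14.

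Markers of blood vessel endothelium were higher at the unadjusted threshold in most members. Of 20 tested, 19 had a log2 fold change above 0, 13 were higher at an unadjusted p under 0.05, and 9 had every traction scar above every sham scar (6.77% of all genes did). limma-voom with sample weights called 10 and DESeq2 called 2. The summed level was 761, 468 and 630.2 CPM in sham scars and 684, 1181 and 1173 CPM in traction scars, where traction scar 1 lay among the sham scars. The median log2 fold change was 0.65 against 1.26 in the wild type, and 3 members lay below the wild-type change at an unadjusted interaction p under 0.05. Without traction scar 1, 16 were higher at the unadjusted threshold and 3 (Egfl7, Eng and Plvap) passed an adjusted p of 0.05 in edgeR.

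Egfl7, a secreted protein of endothelial cells, was at 23.7, 20.9 and 21.0 CPM in sham scars and 28.9, 51.0 and 39.2 CPM in traction scars. The log2 fold change was 0.86 ± 0.19, with no overlap (DESeq2 adjusted p = 0.044). Cldn5, the tight junction protein of endothelium, was at 11.1, 8.83 and 9.20 CPM and 14.4, 18.9 and 16.2 CPM (0.76 ± 0.17, DESeq2 adjusted p = 0.037), and its wild-type change was the same to 2 decimals, 0.76. Eng, the endothelial co-receptor endoglin, was at 34.2, 28.5 and 38.2 CPM and 45.3, 92.7 and 97.3 CPM (1.22 ± 0.30). Each of these 3 genes separated the groups. The angiopoietin receptor homologue Tie1 did as well (1.06 ± 0.28), while Cdh5, the adhesion protein of endothelial junctions (1.18 ± 0.34), and Vwf, the von Willebrand clotting factor (1.27 ± 0.37), did not. Tmem100, a small membrane protein of endothelial and other cells that is not in the marker list, was instead lower, at 28.3, 22.4 and 50.3 CPM in sham and 11.9, 5.64 and 14.5 CPM in traction scars (-1.66 ± 0.45).

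Promoters are shown for the 3 endothelial markers with the smallest p among those with a promoter in the RefSeq table. Markers also had to have an unadjusted p under 0.05 and every traction scar above every sham scar. The windows were taken from RefSeq (GRCm38.p6), from 250 bases before to 50 after the annotated start, on the gene's own strand. Capitals mark the 6 letters CAGGAA on either strand (TTCCTG on the other), a core of the sites of the ETS factors that endothelial genes are known for, and the search counts overlapping matches.
Egfl7: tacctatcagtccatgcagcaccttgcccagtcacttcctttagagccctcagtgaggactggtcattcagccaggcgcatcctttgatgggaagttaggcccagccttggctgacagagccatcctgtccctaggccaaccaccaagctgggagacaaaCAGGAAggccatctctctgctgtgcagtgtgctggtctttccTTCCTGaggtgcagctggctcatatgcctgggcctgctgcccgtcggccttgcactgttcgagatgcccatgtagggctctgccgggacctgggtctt
Cldn5: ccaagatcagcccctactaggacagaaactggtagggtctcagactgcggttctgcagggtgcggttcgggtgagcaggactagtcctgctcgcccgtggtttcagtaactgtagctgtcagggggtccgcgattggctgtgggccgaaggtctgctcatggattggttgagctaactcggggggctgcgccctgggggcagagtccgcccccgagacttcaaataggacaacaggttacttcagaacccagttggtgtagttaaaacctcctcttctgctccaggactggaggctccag
Eng: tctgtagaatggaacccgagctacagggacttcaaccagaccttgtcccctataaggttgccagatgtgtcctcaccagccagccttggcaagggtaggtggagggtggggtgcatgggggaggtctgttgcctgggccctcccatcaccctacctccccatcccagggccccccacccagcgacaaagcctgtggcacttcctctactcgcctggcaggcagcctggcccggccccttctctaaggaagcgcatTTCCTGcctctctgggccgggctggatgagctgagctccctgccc
The Egfl7 window, at chr2:26580833-26581132 on the plus strand, is that of the first of its 3 starts in the table and holds the letters at positions 161 and 203. The Eng window, at chr2:32646345-32646644 on the plus strand, holds them at position 256. The Cldn5 window, at chr16:18776597-18776896 on the plus strand, holds none. Of the 20 endothelial markers tested, 11 had a promoter in the RefSeq table and 8 of these held the letters in at least 1 window (72.7%), against 32.0% of the 13697 tested genes with a promoter. Among markers at an unadjusted p under 0.05, 6 had a promoter and 4 held the letters (66.7%). Genes with more starts have more windows, and the shares were not adjusted for this. A match describes the letters and not a bound site.

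Among lymphatic vessel genes, the median change was higher in Tem1-deficient than in wild-type scars, but the sham scars already differed. Relative to the Tem1-deficient sham mean, mean log2 levels were 0.53, 0.385 and 0.24 in wild-type sham and 0.39, 0.50 and 0.385 in wild-type traction scars. Tem1-deficient scars lay at -0.03, -0.14 and 0.16 under sham and 0.19, 1.03 and 0.415 under traction. Of 8 markers tested, 3 (Flt4, Prox1 and Reln) were higher at an unadjusted p under 0.05, against 5.66% of all genes (4 without traction scar 1). The list median was 0.61 against 0.16 in the wild type (0.31 without traction scar 2). Flt4, the receptor VEGFR3 for lymphatic growth factors, was at 10.1, 8.14 and 9.29 CPM in sham and 13.9, 40.8 and 20.1 CPM in traction scars (1.44 ± 0.33, DESeq2 adjusted p = 0.038). Prox1, the master transcription factor of lymphatic identity, was at 5.21, 4.60 and 5.71 CPM and 7.91, 14.4 and 9.20 CPM (1.02 ± 0.26). Both genes separated the groups. The wild-type change of Prox1 was 0.14 ± 0.26 (difference between the genotypes 0.88 ± 0.36, edgeR adjusted p = 0.548). Reln, an extracellular protein made by lymphatic endothelium among others, had a log2 fold change of 1.47 ± 0.42 and a wild-type change of 0.01 (difference between the genotypes 1.46 ± 0.59, edgeR adjusted p = 0.548). Nrp2, a co-receptor of the same growth factors, was at 47.4, 49.2 and 52.6 CPM and 64.7, 127 and 117 CPM, without overlap (1.05 ± 0.25).

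Fibroblast genes were found in both directions. Of 20 markers, 6 were higher and 2 lower at an unadjusted p under 0.05, against 5.66% and 2.46% of all genes (7 and 2 without traction scar 1). The median was 0.36. The higher members included Col1a1 and Col1a2, which the list shares with the collagens, and Pdgfrb, the PDGF receptor of fibroblasts and pericytes. Pdgfrb was at 54.0, 38.3 and 40.7 CPM in sham and 55.4, 118 and 102 CPM in traction scars (1.05 ± 0.28), where traction scar 1 lay just above the highest sham scar. En1, the homeobox gene of the scar-forming fibroblast lineage of back skin, was at 4.19, 2.92 and 5.07 CPM and 3.696, 14.97 and 13.56 CPM (1.40 ± 0.42), with traction scar 1 among the sham scars.

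The lower members were Dpp4 and Pi16, both known from fibroblasts of the fascia. Pi16, a marker of fibroblasts of the adventitia and fascia, was at 251, 236 and 225 CPM in sham scars and 70.8, 51.4 and 106 CPM in traction scars. Every traction scar lay below every sham scar (-1.64 ± 0.41), and the wild-type change was -0.41 ± 0.40 (difference between the genotypes -1.23 ± 0.56, edgeR adjusted p = 0.555). Other lower genes outside the fibroblast list were surface and secreted regulators. Cd34, a surface sialomucin of resident fibroblasts and of endothelium, was at 354, 269.9 and 455 CPM and 175, 128 and 229.6 CPM without overlap (-1.02 ± 0.40). Sfrp4, a secreted Wnt inhibitor, was at 53.5, 38.1 and 66.5 CPM and 14.7, 4.65 and 21.9 CPM (-1.94 ± 0.51). Ackr3, a scavenging receptor for CXCL12, was at 133, 108 and 237 CPM and 69.8, 63.6 and 62.2 CPM (-1.29 ± 0.32). Sfrp4 and Ackr3 also separated the groups. The wild-type change of Ackr3 was 0.36 ± 0.32 (difference between the genotypes -1.65 ± 0.45, edgeR adjusted p = 0.548). Tnfrsf11b, which encodes the decoy receptor osteoprotegerin, was at 41.4, 35.7 and 56.3 CPM and 21.7, 17.5 and 18.8 CPM (-1.20 ± 0.25, DESeq2 adjusted p = 0.025), and its wild-type change was -0.89.

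Besides Tnfrsf11b, 4 genes called lower by DESeq2 separated the groups. Kcnk5, a background potassium channel, was at 5.28, 7.17 and 6.58 CPM in sham and 3.38, 3.13 and 3.54 CPM in traction scars (-0.92 ± 0.18, DESeq2 adjusted p = 0.00033). Dact2, a regulator of Wnt and TGF-beta signalling, was at 18.9, 9.02 and 16.3 CPM and 3.87, 3.97 and 5.34 CPM (-1.75 ± 0.36, DESeq2 adjusted p = 0.0078). The wild-type log2 fold changes had the same direction for both, at -0.79 and -1.42. Rgs4, a brake on G-protein signals, was at 79.2, 35.0 and 28.4 CPM and 13.3, 12.6 and 16.4 CPM (-1.75 ± 0.41, DESeq2 adjusted p = 0.037). Errfi1, a feedback inhibitor of the EGF receptor, was at 80.7, 91.6 and 101 CPM and 60.4, 50.1 and 54.9 CPM (-0.72 ± 0.16, DESeq2 adjusted p = 0.038). Its wild-type change was 0.34 ± 0.16, a difference of -1.06 ± 0.23 (edgeR adjusted p = 0.548).

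**Figure D3:**
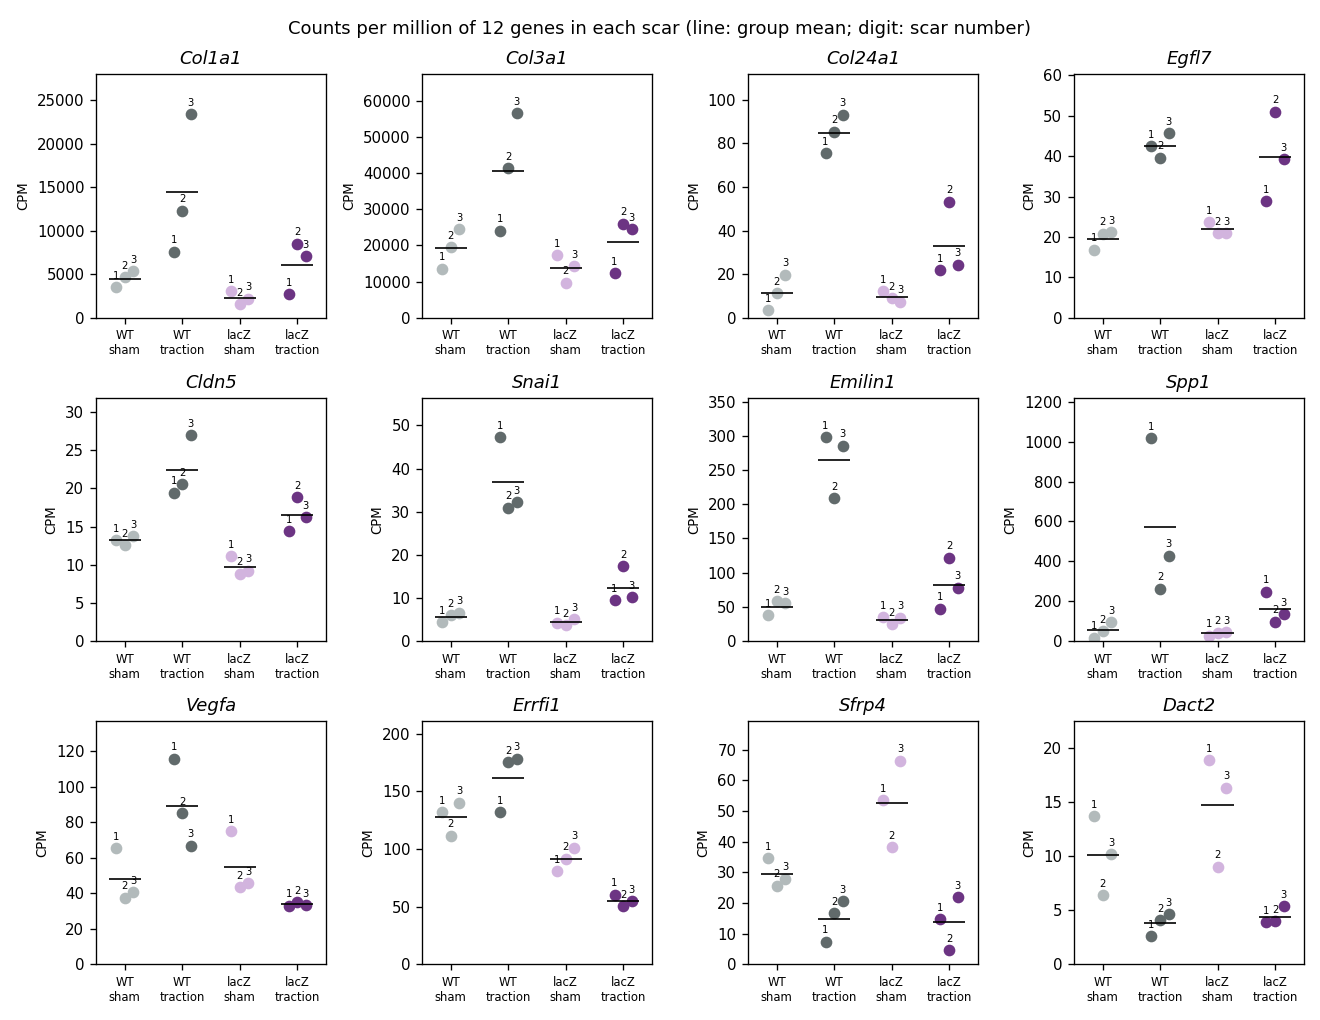
TMM-normalized CPM of 12 genes in each of the 12 scars (linear vertical axes from 0), by group. Points are scars marked with their number and horizontal lines are group means. For Egfl7, Cldn5, Snai1, Emilin1, Col24a1 and Spp1 all lacZ traction scars lie above all lacZ sham scars, for Vegfa, Errfi1, Sfrp4 and Dact2 they lie below, and for Col1a1 and Col3a1 traction scar 1 lies among the sham scars.

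Inflammatory genes had small median changes in Tem1-deficient scars. Of 25 inflammatory cytokines and receptors, 1 was higher and 0 lower at an unadjusted p under 0.05. Their median was 0.27 against 2.46, and 14 members lay below the wild-type change at an unadjusted interaction p under 0.05, against 4.46% of all genes. Wild-type traction scar 1 stood far above the others. Relative to the Tem1-deficient sham mean, the mean log2 level was 3.80, 1.46 and 1.14 in wild-type traction scars 1, 2 and 3. It was 0.26, 0.17 and 0.37 in the Tem1-deficient traction scars. Of 28 chemokines and receptors, 1 was higher (Cxcl5) and 1 lower (Ccl11), with a median of 0.21 against 1.18 (-0.06 without traction scar 3). Relative to the same sham mean, this list was at 3.09, 0.61 and 0.90 in wild-type traction scars 1, 2 and 3. Cxcl5, a neutrophil attractant, was at 2.90, 1.38 and 1.98 CPM in sham and 23.9, 23.6 and 2.28 CPM in traction scars (2.99 ± 0.90), so that traction scar 3 lay among the sham scars. Ccl20, an attractant of dendritic and T cells made by keratinocytes and not in that list, was at 11.7, 8.23 and 5.37 CPM and 2.51, 2.06 and 2.62 CPM without overlap (-1.82 ± 0.49), with a wild-type change of -2.102. Nos2, the inducible nitric oxide synthase, was at 1.40, 1.16 and 1.09 CPM and 1.85, 3.64 and 1.51 CPM (0.94 ± 0.67). Its wild-type change was 6.51 ± 0.78 (difference between the genotypes -5.57 ± 0.96, edgeR adjusted p = 0.548).

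Neutrophil markers had a summed level of 282, 257 and 253 CPM in sham scars and 626, 372 and 357 CPM in traction scars. The groups did not overlap. The wild-type sums were 146 to 169 CPM under sham and 9144, 933 and 536 CPM in traction scars 1, 2 and 3. Wild-type traction scar 1 was thus far above the others. Of the 14 markers tested, 5 had every traction scar above every sham scar, against 6.77% of all genes. Only 1 was higher at an unadjusted p under 0.05, near the 5.66% of all genes. It was Csf3r, the receptor for granulocyte colony-stimulating factor, at 12.1, 9.14 and 16.6 CPM and 39.7, 58.3 and 33.9 CPM (1.80 ± 0.74). The list median was 0.86 against 4.29 in the wild type, and 8 members lay below the wild-type change at an unadjusted interaction p under 0.05, against 4.46% of all genes.

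Other leukocyte lists showed few members at the unadjusted threshold, where 5.66% of all genes were higher and 2.46% lower. Of 18 monocyte and macrophage markers, 15 had a log2 fold change above 0 and 2 were higher (6 without traction scar 1), with a median of 0.27 (0.02 without traction scar 3). Gpnmb, a glycoprotein of lipid-handling macrophages and pigment cells, was at 129, 196 and 134 CPM and 252, 179 and 431 CPM with the groups overlapping (0.91 ± 0.36), against -0.78 in the wild type (difference between the genotypes 1.69 ± 0.50, edgeR adjusted p = 0.548). Mast cell markers had a log2 fold change above 0 for all 10 members, with 2 higher at the threshold and a median of 0.43 (0.16 in the wild type). Antigen-presenting cell markers had a median of -0.39 with 1 of 14 lower. It was Xcr1, the chemokine receptor of cross-presenting dendritic cells (-0.82 ± 0.36). T lymphocyte markers had a median of -0.26 (1 of 13 higher and 0 lower), interferon response genes one of -0.02, which ran from -0.40 to 0.22 over the settings tried (0 and 0 of 20) and complement genes one of 0.18 (0 and 0 of 15). The complement median was -0.05 without traction scar 3 and 0.50 without traction scar 1.

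Immediate early, hypoxia and secretory stress genes had medians below 0, where the wild-type medians were above 0. The median of 17 AP-1 and immediate early factors was -0.07 against 1.10 in the wild type, with 2 lower (Fosb and Egr2) and 0 higher at an unadjusted p under 0.05 (the median was 0.01 without traction scar 1). Relative to the Tem1-deficient sham mean, the mean log2 level was 1.73, 0.66 and 0.475 in wild-type traction scars 1, 2 and 3. Egr2, a zinc finger factor induced by serum and by nerve contact, was at 94.7, 77.4 and 56.0 CPM in sham and 41.7, 51.1 and 42.0 CPM in traction scars (-0.76 ± 0.27), all below the sham scars. Fosb, an AP-1 subunit, had a log2 fold change of -1.70 ± 0.75, with sham scar 2 among the traction scars. For 20 glycolysis and hypoxia genes the median was -0.29 against 0.90, and 17 members were below 0. In this list 11 lay below the wild-type change at an unadjusted interaction p under 0.05, against 4.46% of all genes. Here too wild-type traction scar 1 stood highest, with mean log2 levels of 1.42, 0.29 and 0.41 in scars 1, 2 and 3 relative to the Tem1-deficient sham mean.

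Vegfa, the main growth factor of blood vessels and a hypoxia target, was at 75.1, 43.2 and 45.6 CPM in sham scars and 33.0, 34.8 and 33.1 CPM in traction scars of Tem1-deficient mice. It was at 65.2, 37.5 and 40.6 CPM in sham and 116, 85.1 and 66.8 CPM in traction scars of the wild type. Traction scars were thus lowest in one genotype and highest in the other, with log2 fold changes of -0.70 ± 0.28 and 0.90 ± 0.28 (difference between the genotypes -1.60 ± 0.39, edgeR adjusted p = 0.548). Sham scar 1 stood above the other Tem1-deficient sham scars, and without it the Tem1-deficient change was -0.36 (edgeR adjusted p = 0.725), against -0.65 without traction scar 1 (edgeR adjusted p = 0.334). Adm, the vasodilator peptide adrenomedullin and also a hypoxia target, was at 10.8, 6.26 and 8.56 CPM and 6.06, 44.1 and 28.1 CPM (1.61 ± 0.56), with traction scar 1 below the sham scars. Without that scar its log2 fold change was 2.12 (edgeR adjusted p = 0.049).

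Of 20 genes of the secretory pathway and unfolded protein response, 13 lay below the wild-type change at an unadjusted interaction p under 0.05. The median was -0.11 against 0.55. Herpud1, which helps clear misfolded proteins of the endoplasmic reticulum, was at 119, 105 and 97.8 CPM in sham and 76.0, 67.2 and 71.6 CPM in traction scars (-0.58 ± 0.18). Creb3l1, a transcription factor that supports collagen secretion, was at 23.8, 18.8 and 21.1 CPM and 24.4, 53.6 and 50.6 CPM (1.01 ± 0.30). Both genes separated the groups, in opposite directions. Glucocorticoid-induced genes had a median of -0.28 (0.60 in the wild type), with 2 of 13 lower, of which Errfi1 is one. Clock genes had a median of -0.04 (0.11 without sham scar 1) and stretch-sensing channel genes one of 0.16, with 0 of 11 channels higher or lower at the threshold.

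**Figure D4:**
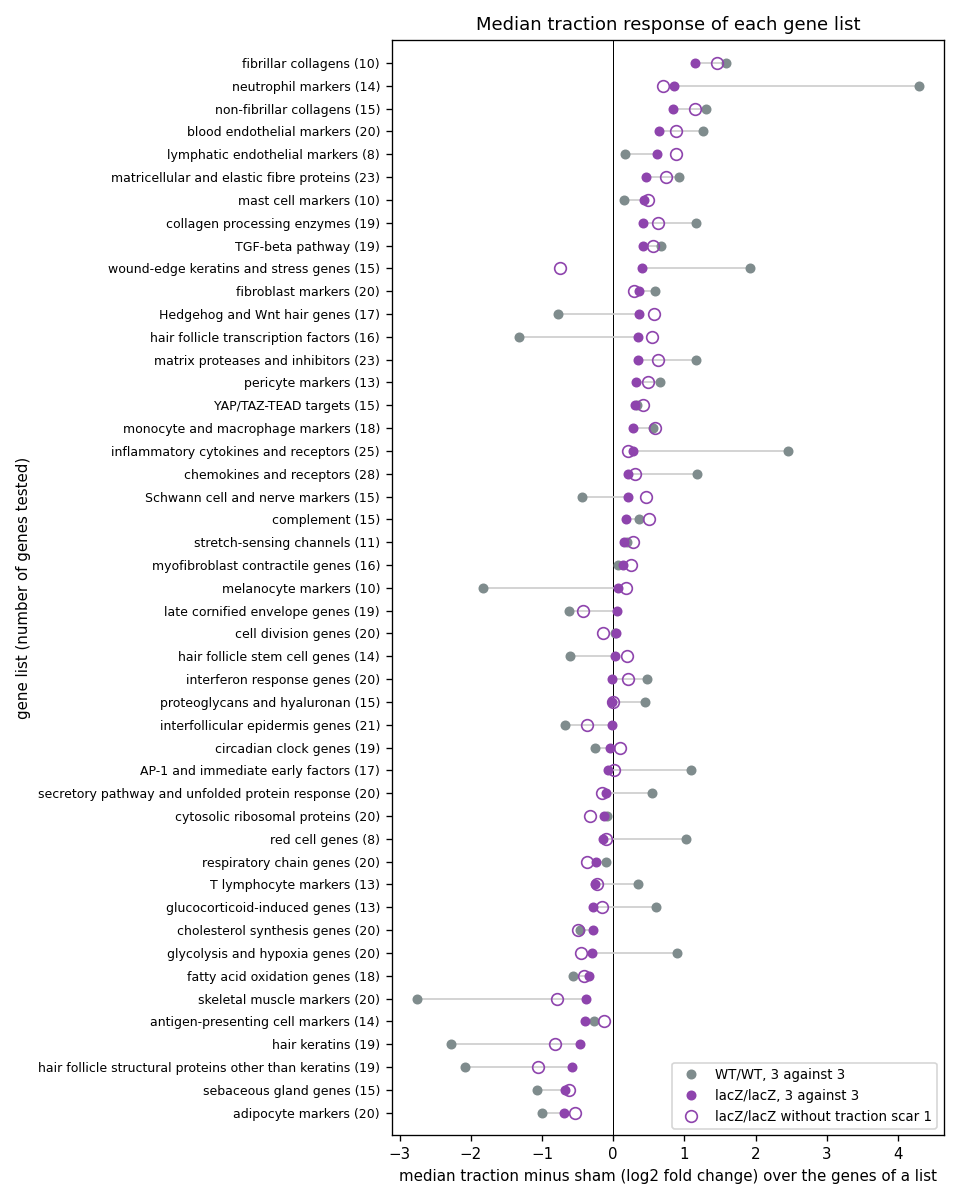
Median traction minus sham log2 fold change over the tested genes of each list (horizontal axis), with the number of genes after each name, in Tem1-deficient scars (filled purple), in the same scars without traction scar 1 (open purple) and in Tem1 WT/WT scars (grey). The medians of collagens and vessels are above 0 in both genotypes, cytokines and neutrophil markers are at 0.27 and 0.86 in Tem1-deficient scars against 2.46 and 4.29, and hair lists lie between -0.58 and 0.36 against -2.28 to -0.61.

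Hair follicle lists had wild-type medians below 0, and their Tem1-deficient medians lay nearer to 0 or above it. In Tem1-deficient scars 19 of 19 hair keratins had a log2 fold change below 0, yet 0 were lower at an unadjusted p under 0.05, and the median was -0.46 against -2.28 in the wild type. Their summed level was 2673, 19657 and 10568 CPM in sham scars and 12245, 7661 and 5654 CPM in traction scars, so the spread among sham scars was wider than the difference. Krt71, an inner root sheath keratin, was at 1047, 8585 and 4524 CPM and 5226, 3525 and 2622 CPM. Its log2 fold change of -0.32 ± 0.59 turned to 0.47 without sham scar 2. Without sham scar 2 the median of the hair keratins was also above 0, at 0.20, and without traction scar 1 it was -0.82.

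Hair follicle transcription factors had a median of 0.35 against -1.32, with 13 of 16 above 0, and without traction scar 2 the median was 0.06. The sham scars of the 2 genotypes already differed. Relative to the Tem1-deficient sham mean, mean log2 levels were 0.49, 1.29 and 0.485 in wild-type sham and -0.46, -0.03 and -0.28 in wild-type traction scars. Tem1-deficient scars lay at -0.32, 0.35 and -0.02 under sham and 0.06, 0.58 and 0.30 under traction. In this list 11 members lay above the wild-type change at an unadjusted interaction p under 0.05 (4.46% of all genes did). Lhx2, a factor of the hair stem cell niche, was at 13.4, 23.2 and 19.6 CPM in sham and 16.0, 27.2 and 17.8 CPM in traction scars (0.12 ± 0.32, with the groups overlapping), against -1.49 ± 0.33 in the wild type (difference between the genotypes 1.61 ± 0.46, edgeR adjusted p = 0.548). Foxe1, a forkhead factor of the lower follicle, was at 1.714, 5.196 and 4.744 CPM and 5.717, 6.998 and 4.374 CPM (0.55 ± 0.45), against -1.36 (difference between the genotypes 1.91 ± 0.64, edgeR adjusted p = 0.548). Hedgehog and Wnt hair genes were above 0 for 16 of 17 members, with 0 at the unadjusted threshold and a median of 0.36 against -0.78 (0.14 without traction scar 2). On the same scale, their mean log2 levels under sham were 0.46, 1.13 and 0.33 in wild-type and -0.50, 0.445 and 0.05 in Tem1-deficient scars. Structural hair proteins other than keratins had a median of -0.58 (0.18 without sham scar 2) against -2.09, hair stem cell genes one of 0.02 against -0.61, and melanocyte markers one of 0.06 against -1.83. The stem cell median was -0.14 without traction scar 2, and the melanocyte median ran from -0.37 without sham scar 1 to 1.03 without sham scar 2. The lower structural gene was Gsdma3, a gasdermin of the follicle, at 28.6, 36.4 and 24.2 CPM and 11.1, 8.89 and 5.75 CPM without overlap (-1.80 ± 0.51).

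The epidermal lists changed sign or size when traction scar 1 was left out. Wound-edge keratins and stress genes had a median of 0.40 with all 6 libraries and of -0.74 without traction scar 1. Interfollicular epidermis genes went from -0.02 to -0.37, and late cornified envelope genes from 0.05 to -0.43. Within the first list, Krt17 and Sprr1a were lower at an unadjusted p under 0.05 in both cases. Krt17, a keratin of wounded and follicular epithelium, was at 5184, 4577 and 3095 CPM in sham and 3088, 1380.3 and 1173 CPM in traction scars (-1.19 ± 0.50). Sprr1a, a cornified envelope precursor, was at 956, 955 and 649 CPM and 575, 303 and 269 CPM (-1.16 ± 0.33), against -1.11 in the wild type. Neither gene overlapped between the groups. Krt10, the keratin of differentiating epidermis, was higher in every traction scar (3879, 2998 and 4136 CPM, against 1629, 1721 and 1297 CPM), with a log2 fold change of 1.24 ± 0.74 that did not pass the unadjusted threshold (edgeR adjusted p = 0.655).

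Sebaceous gland genes had medians below 0 in both genotypes. Of 15 tested, 13 had a log2 fold change below 0, 7 had every traction scar below every sham scar (6.16% of all genes did) and 4 were lower at an unadjusted p under 0.05 (3 without traction scar 1). The median was -0.68 against -1.06, and 0 members differed between the genotypes at an unadjusted interaction p under 0.05. The summed level was 3754, 4186 and 2721 CPM in sham and 2289, 1828 and 2104 CPM in traction scars. Dgat2l6, an acyltransferase of skin lipids, was at 25.5, 33.0 and 22.5 CPM and 16.0, 13.5 and 8.82 CPM (-1.08 ± 0.36). Awat2, a wax synthase of sebum, was at 12.7, 21.1 and 14.1 CPM and 8.231, 7.246 and 6.995 CPM (-1.09 ± 0.43). Krt79, a keratin of the gland and its duct, was at 2264, 2214 and 1451 CPM and 1175, 885 and 985 CPM (-0.96 ± 0.36). The 3 genes separated the groups.

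Adipocyte and muscle genes varied widely between scars of 1 group. Of 20 adipocyte markers, 19 had a log2 fold change below 0 but 0 were lower at an unadjusted p under 0.05, with a median of -0.70. Their summed level was 18895, 2902 and 4600.1 CPM in sham scars and 1992, 2216 and 9935 CPM in traction scars, and without sham scar 1 the median turned to 0.51. Cidec, a lipid droplet protein of fat cells, ranged from 17.2 to 612 CPM in sham scars and from 9.32 to 231 CPM in traction scars (-1.53 ± 1.55). Skeletal muscle markers had a median of -0.39 against -2.76 in the wild type, with 0 of 20 lower, and summed to 1828 to 5086 CPM under sham and 2287 to 3943 CPM under traction. Wild-type scars 1, 2 and 3 also varied widely, with sums of 20028, 5298 and 1948 CPM under sham and 3019, 501 and 605 CPM under traction.

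**Figure D5:**
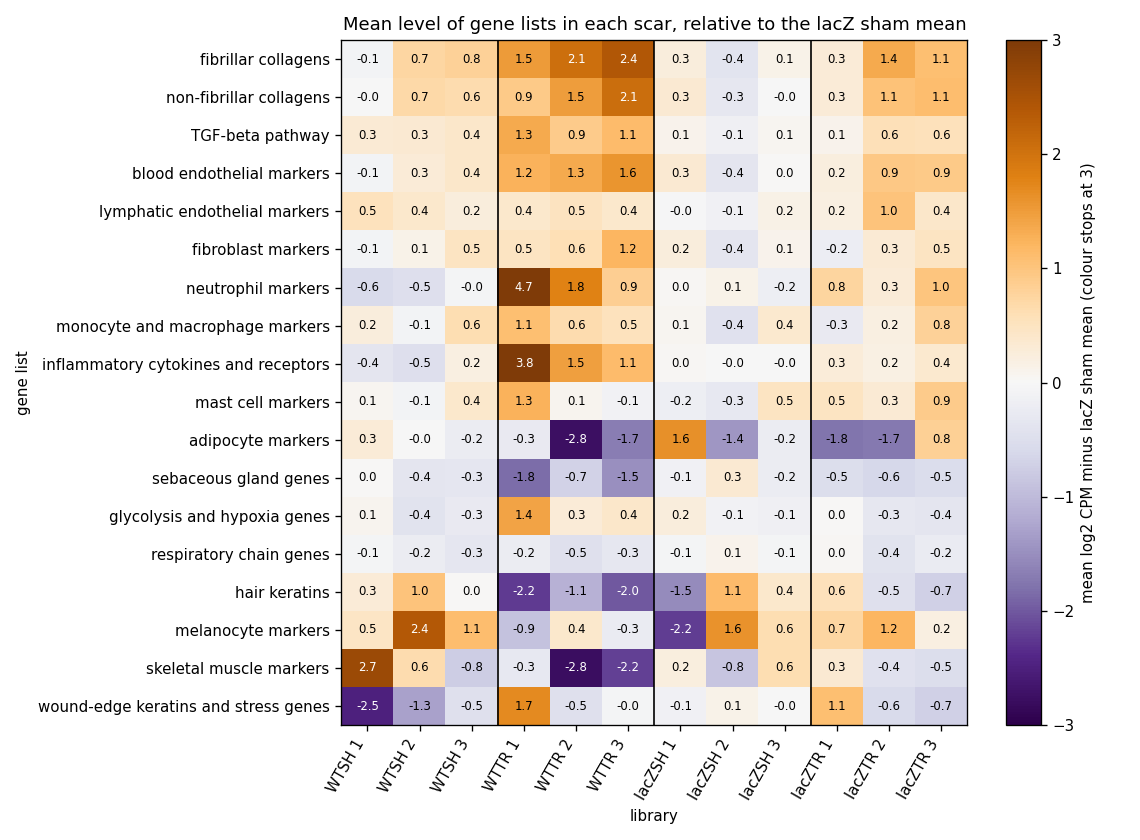
Mean log2 CPM of 18 gene lists in each library minus the mean of the 3 lacZ sham libraries, with groups divided by black lines (orange higher, purple lower, colours stop at 3). Collagens and blood endothelium are higher in lacZ traction scars 2 and 3 than in scar 1, adipocyte markers range from -1.41 to 1.63 among the lacZ sham scars, and wound-edge genes stand at 1.08 in lacZ traction scar 1.

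Nerve genes were found in both directions. Schwann cell and nerve markers had a median of 0.20 against -0.44 in the wild type (-0.0050 without traction scar 2 and 0.46 without traction scar 1). Of 15, 3 were higher and 2 lower at an unadjusted p under 0.05, against 5.66% and 2.46% of all genes. In all, 6 lay above the wild-type change at an unadjusted interaction p under 0.05, against 4.46% of all genes. Sox10, the transcription factor of neural crest cells including Schwann cells and melanocytes, was at 2.74, 3.30 and 2.70 CPM in sham and 2.64, 7.42 and 6.75 CPM in traction scars. Traction scar 1 lay below the sham scars (0.94 ± 0.37), and the wild-type change was -0.63 ± 0.37 (difference between the genotypes 1.57 ± 0.52, edgeR adjusted p = 0.548). Scn3a, a neuronal sodium channel subunit outside that list, was at 5.35, 6.17 and 5.39 CPM and 9.46, 27.2 and 16.1 CPM without overlap (1.64 ± 0.35, DESeq2 adjusted p = 0.016). In the wild type it was at 12.3, 10.5 and 6.68 CPM under sham and 5.19, 4.97 and 6.41 CPM under traction (-0.83 ± 0.34), again without overlap but in the other direction (difference between the genotypes 2.47 ± 0.49, edgeR adjusted p = 0.548). Slc16a14, an orphan member of the monocarboxylate transporter family, was at 9.80, 11.7 and 10.1 CPM and 22.5, 21.0 and 15.7 CPM (0.91 ± 0.20, DESeq2 adjusted p = 0.025), against 0.09 in the wild type (difference between the genotypes 0.82 ± 0.28, edgeR adjusted p = 0.548).

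Energy and lipid metabolism lists had medians slightly below 0. Respiratory chain genes were below 0 for 18 of 20, with a median of -0.24 and 1 lower at an unadjusted p under 0.05 (8 without traction scar 1). It was Sdhb, the iron-sulphur subunit of complex II, at 94.7, 97.0 and 96.8 CPM in sham and 83.9, 63.6 and 69.1 CPM in traction scars (-0.41 ± 0.13). Cholesterol synthesis genes had a median of -0.28 with 2 of 20 lower (8 without traction scar 1), Msmo1, a methylsterol oxidase, among them (-0.67 ± 0.26). Fatty acid oxidation genes had a median of -0.34, cytosolic ribosomal protein genes one of -0.13, red cell genes one of -0.15 and cell division genes one of 0.04, with at most 1 member of each at the threshold. The ribosomal median was 0.10 without sham scar 2, the red cell median 0.02 without traction scar 2 and the cell division median -0.24 in limma-voom with sample weights. The respective wild-type medians were -0.56, -0.09, 1.03 and 0.02. The mitochondrial share of counts was 4.95% to 5.34% in sham scars and 3.69% to 4.92% in traction scars.

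Pericyte markers had 12 of 13 members above 0 and a median of 0.32 against 0.65, with 1 (Pdgfrb) at the unadjusted threshold. The genes that the study itself named were described in the same way, although that choice was made on these libraries. Of 17 profibrotic genes, 7 were higher in Tem1-deficient traction scars at an unadjusted p under 0.05 (median 0.47 against 1.23 in the wild type). Of 16 inflammatory genes, 2 were higher and 1 lower (median 0.38 against 1.69). Of 21 genes of lipid, epidermis and hair, 1 was lower (median -0.09, or 0.27 without sham scar 2, against -1.41).

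Outside the lists, Armcx4, a member of the armadillo-repeat family of unclear role, was at 17.7, 12.7 and 17.3 CPM in sham and 23.5, 41.3 and 32.0 CPM in traction scars (1.02 ± 0.21, DESeq2 adjusted p = 0.025). Wnt2, a secreted Wnt ligand, was at 16.5, 23.3 and 37.7 CPM and 6.36, 1.72 and 10.8 CPM (-2.03 ± 0.85). Akr1c14, a steroid-reducing aldo-keto reductase, was at 23.9, 11.1 and 29.2 CPM and 4.386, 2.098 and 7.938 CPM (-2.15 ± 0.64). Each of these genes separated the groups, with Armcx4 higher and the others lower in traction scars.

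Fewer genes separated the groups in opposite directions in the 2 genotypes than in the same direction. How many would do so by chance was not worked out. The traction scars of both genotypes lay above their sham scars for 578 genes (3.07%) and below them for 452 (2.4%). They lay above in Tem1-deficient and below in wild-type scars for 43 genes (0.228%) and the reverse for 42 (0.223%).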

How the data were processed

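Gene counts of 12 libraries from scar RNA were analysed as deposited by the authors, 1 library for each scar. The authors made paired-end libraries with a strand-marking mRNA kit, trimmed reads with fastp 0.20.0, aligned them to GRCm38 with HISAT2 2.1.0 and counted them with featureCounts 2.0.0. The annotation, strand setting and treatment of multi-mapping reads are not given in the sources used here, so overlapping, antisense and near-identical genes may share counts. The 27 repeated or date-like symbols were kept as separate genes.

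Genes were filtered with filterByExpr, normalized by TMM and tested in edgeR 4.0.16 (R 4.3.3; robust quasi-likelihood, Benjamini-Hochberg adjustment, 4 groups fitted together), because edgeR was taken as the main test of counts in place of DESeq2. Alternatives were DESeq2 1.42.0, limma 3.58.1 (voom with and without sample weights), other normalizations and filters, a replicate block and leaving out each library. Principal components used the 500 most variable genes after DESeq2's variance-stabilizing transformation. Figures and promoters used Python 3.11.15, pandas 2.3.3 and matplotlib 3.10.9. The fits were tested on simulated data.

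Genes named singly were Cd248, up to 4 members of each list with the largest change at a mean log2 CPM of 1 or more, genes named by the study, the 15 higher and 15 lower genes with the smallest unadjusted p among those without overlap, and the 10 in each direction with the largest change at a mean log2 CPM of 3 or more. A choice from these was printed, and Ccl11, Dpp4 and Plvap were named after their values were seen. The comparison and the lists were chosen with earlier results of these data known. The p-values measure the spread between scars of 3 mice in each group, and same-numbered scars of different groups come from different mice. Intervals around single counts were not given, since totals of 41536788 counts or more leave the spread between mice as the limit.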

Additional observations from a re-analysis of the deposited data

Results flagged for a closer look

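Vegfa, the vessel growth factor, was set apart because traction scars lay below every sham scar in Tem1-deficient mice and above every sham scar in the wild type. Its log2 fold change was -0.70 in Tem1-deficient and 0.90 in wild-type scars, and the interaction of genotype and traction had an adjusted p of 0.548 in edgeR. Without sham scar 1 the Tem1-deficient change of Vegfa was -0.36 (edgeR adjusted p = 0.725). Scn3a, the sodium channel subunit, differed in the other direction, with log2 fold changes of 1.64 in Tem1-deficient and -0.83 in wild-type scars. The interaction had an adjusted p of 0.548 in edgeR. Neither difference passed the correction for 18853 genes, and both were below an unadjusted p of 0.05, as were 840 genes in each direction.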

How the results depend on the processing

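The number of genes called depended on the test and on single scars. Against 0 genes at an adjusted p under 0.05 in edgeR, DESeq2 called 23 with and without independent filtering and limma-voom with sample weights called 435. Leaving out each scar in turn gave 0 to 73, the highest without traction scar 1, while the 5 other Tem1-deficient libraries fitted alone (chosen after seeing the data) gave 0. The 1530 genes at an unadjusted p under 0.05 (1067 higher and 463 lower) were 5312 (2859 and 2453) by limma-voom with sample weights and 4585 (2604 and 1981) with those 5 libraries. Leaving out a scar gave 588 to 3721, with 362 to 2405 higher and 226 to 1316 lower. The total was 895 without sham scar 2, 588 without traction scar 2, 930 without traction scar 3 and 3721 without traction scar 1. It was 2109 without wild-type traction scar 1, which enters only the shared estimate of the spread and the filter and normalization. The higher genes were 553 without sham scar 2 and 489 without traction scar 3, and the lower genes 293 without sham scar 1. The interaction count of 0 was 69 in DESeq2 with both filtering settings and 0 to 31 without each scar, with 31 without wild-type traction scar 2. The median change of the 1057 genes ranged from 0.32 to 0.60 and that of the 668 from -0.45 to -0.24 without each scar. The group difference on principal component 1, 8.54 as reported, ranged from 2.25 to 24.7 without each scar and was 0.232 with the 2000 most variable genes, 29.2 with all genes that passed the filter and 16.3 with log2 CPM. Without each scar, 28 to 35 of the 50 lists had a median above 0, against 29 with all libraries. Of the lists, 31 kept the sign of their median in every setting. Cd248, near 0 in both groups, turned from 0.08 to -0.65 in limma-voom without sample weights, to -0.01 without sham scar 1, to -0.13 without sham scar 3 and to -0.91 without traction scar 2 (range -0.91 to 0.62). Of the 80 genes named singly, 76 kept their direction in up to 24 settings, a count partly fixed by the choice of genes with separated groups or large changes. P4ha1 turned to 0.0059 without sham scar 3 (range without each scar -0.27 to 0.0059), Krt71 to 0.10 in limma-voom without sample weights and to 0.47 without sham scar 2 (-0.76 to 0.47), Cidec to 0.56 without sham scar 1 (-4.45 to 0.56), and Lhx2 to -0.03 without sham scar 1 and -0.15 without traction scar 2 (-0.15 to 0.33). Without each scar 78 to 80 kept it. The replicate numbers did not pair the scars (correlations of -0.32, 0.03 and 0.03), and with a replicate block 0 genes passed the adjusted threshold and 1538 the unadjusted one (971 higher and 567 lower). The median over all genes, -0.01 as reported, ranged from -0.05 with upper quartile normalization to 0.04 without sham scar 1. The causes of these differences were not tested.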
